A study of Mus musculus with 48 samples.

Results

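The genes described here are Csf1, Csf1r, Csf2rb, Maf, Myc, Klf2 and Klf4, the regulators tied to macrophage self-renewal together with receptors and a ligand of the colony-stimulating factor (CSF) family. They were taken by symbol from the deposited count files, and they are 7 of 54735 genes listed there. All 7 were among the 17080 genes with enough counts to be tested. Their levels were followed in mouse Kupffer cells (KCs), macrophages that live in the liver sinusoids, after acetaminophen (APAP), a drug that kills hepatocytes at overdose, and were read against the wave of cell division genes that follows.

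In mouse macrophages, signalling through the CSF1 receptor, encoded by Csf1r, sustains survival and division, and CSF1 in the liver comes largely from neighbouring stromal and endothelial cells. The transcription factor MAF helps to hold mature macrophages out of the cell cycle, and mouse macrophages that renew themselves in CSF1 need MYC and KLF4. MYC drives ribosome production and growth, KLF2 is a zinc finger factor associated with quiescence, and the protein encoded by Csf2rb is the signalling chain shared by the receptors for GM-CSF, IL-3 and IL-5.

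The data were bulk RNA-seq read counts from liver KCs of male C57BL/6 mice, in 48 libraries of 13 groups. KCs were taken 6, 12, 24, 36, 48, 72, 96, 120 and 168 h after APAP, with 4 libraries at each time. KCs that the labels call LAM-like were taken 36 and 48 h after APAP, with 4 libraries each, and the labels do not say what separated them from the other KCs. The control KCs received phosphate-buffered saline (PBS) and had 2 libraries labelled 0 h and 2 labelled 24 h. No transgene or deletion is named in the labels, and the age and the APAP dose are not given there. The labels do not say whether each library came from a separate mouse, so p-values measure the spread between libraries only.

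Libraries held between 15885336 and 26058698 counts, and no pair of libraries had identical values. KC markers were high in the libraries. Clec4f, a KC lectin receptor, averaged 14796 CPM (reads of a gene scaled to a common library total) in PBS. A sum over 12 KC markers ranged from 21927 to 53200.5 CPM over the 48 libraries. Markers of some other cells were lower, with sums of 360 to 1218 CPM for endothelial cells, 97.8 to 1257 CPM for monocytes and 37.2 to 182 CPM for neutrophils. The hepatocyte marker sum varied most, from 405 CPM to 22979 CPM, with its highest value in replicate 2 at 72 h. That value lay within the range of the KC marker sums. Clec4f itself averaged 6949 CPM at 24 h and 16949 CPM at 120 h. In bulk samples, fewer cells of a type and less RNA per cell cannot be told apart.

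The libraries also fell into sets by the sample numbers in the file headers, which no source explains. Numbers up to 25 (25 libraries) are called set 1 here and higher numbers (23 libraries) set 2. Both PBS 24 h libraries were in set 1 and both PBS 0 h libraries in set 2, so the PBS time and the set cannot be told apart among controls. Each APAP group had 2 libraries of each set, except KCs at 12 h, with 3 of set 1 and 1 of set 2. A sum over 22 immediate early genes, which respond within minutes to stimulation and to tissue dissociation, averaged 2662 CPM in the PBS 0 h libraries and 9791 CPM in the PBS 24 h libraries.

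Klf2 and Klf4 had the most similar group means of any pair among the 7 genes (Pearson r 0.933 over the 13 groups, which share libraries and PBS controls, as a description). Their promoters are shown for that reason, from RefSeq on GRCm38.p6, which held an entry for 3 of the 7 genes. Each runs from 250 bases before the start site to 50 after it, Klf2 at chr8:72318812-72319111 on the plus strand and Klf4 at chr4:55532426-55532725 on the minus strand. Capitals mark matches to 3 motifs searched on both strands: CTA and TAG with 4 bases of any kind between them, the MEF2 type, CACGTG, the E-box that MYC and MAX bind, and TGACG, the core of the CREB and ATF site, which reads CGTCA on the other strand.
Klf2: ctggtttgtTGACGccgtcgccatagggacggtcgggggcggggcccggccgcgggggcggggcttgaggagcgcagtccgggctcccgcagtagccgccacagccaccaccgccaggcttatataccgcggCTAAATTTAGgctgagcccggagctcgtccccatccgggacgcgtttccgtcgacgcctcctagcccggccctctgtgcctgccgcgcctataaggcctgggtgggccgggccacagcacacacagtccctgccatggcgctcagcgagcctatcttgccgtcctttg
Klf4: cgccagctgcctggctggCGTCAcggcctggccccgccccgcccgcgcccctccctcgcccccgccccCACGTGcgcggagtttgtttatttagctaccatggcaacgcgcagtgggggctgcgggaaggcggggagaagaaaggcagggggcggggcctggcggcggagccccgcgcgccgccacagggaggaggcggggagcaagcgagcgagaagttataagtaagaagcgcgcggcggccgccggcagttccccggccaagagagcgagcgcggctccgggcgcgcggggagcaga
The MEF2-type match lay in the Klf2 promoter at position -118 and not in the Klf4 window, and 3.69% of 32851 mouse promoters of the same length held it. The CACGTG match lay in the Klf4 promoter at -182 and was found in 7.15% of all promoters. TGACG occurred once in each, at -241 and -232, and in 20.8% of all promoters. Of motifs not capitalised, GGGCGG, the GC box, occurred 2 times in Klf2 and 4 times in Klf4 (35.7% of promoters). CACCC, a KLF-type site, occurred 1 time in Klf2 and 0 times in Klf4 (57.5%), and TGCTGA, part of the MAF site, in neither (19.5%). No match overlapped one of another motif, and a match describes these letters only.

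Per kilobase of transcript, Csf1r was the highest of the 7 in the 4 PBS libraries, at a level of 1284 ± 38.5 CPM per kb (SD, n = 4). Klf2 followed at a level of 209.9 CPM per kb, and Myc, Csf2rb and Maf at 46.9, 28.8 and 26.5 CPM per kb. Klf4 stood at 4.97 CPM per kb and Csf1, the ligand, at 0.878 CPM per kb. On mm10 with GENCODE M21, Csf1r lies at chr18:61100598-61132149 (plus strand), Csf1 at chr3:107741048-107760469 (minus), Csf2rb at chr15:78325752-78353847 (plus), Maf at chr8:115682942-115707794 (minus), Myc at chr15:61985391-61990374 (plus), Klf2 at chr8:72319033-72321656 (plus) and Klf4 at chr4:55527143-55532466 (minus).

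**Figure D1:**
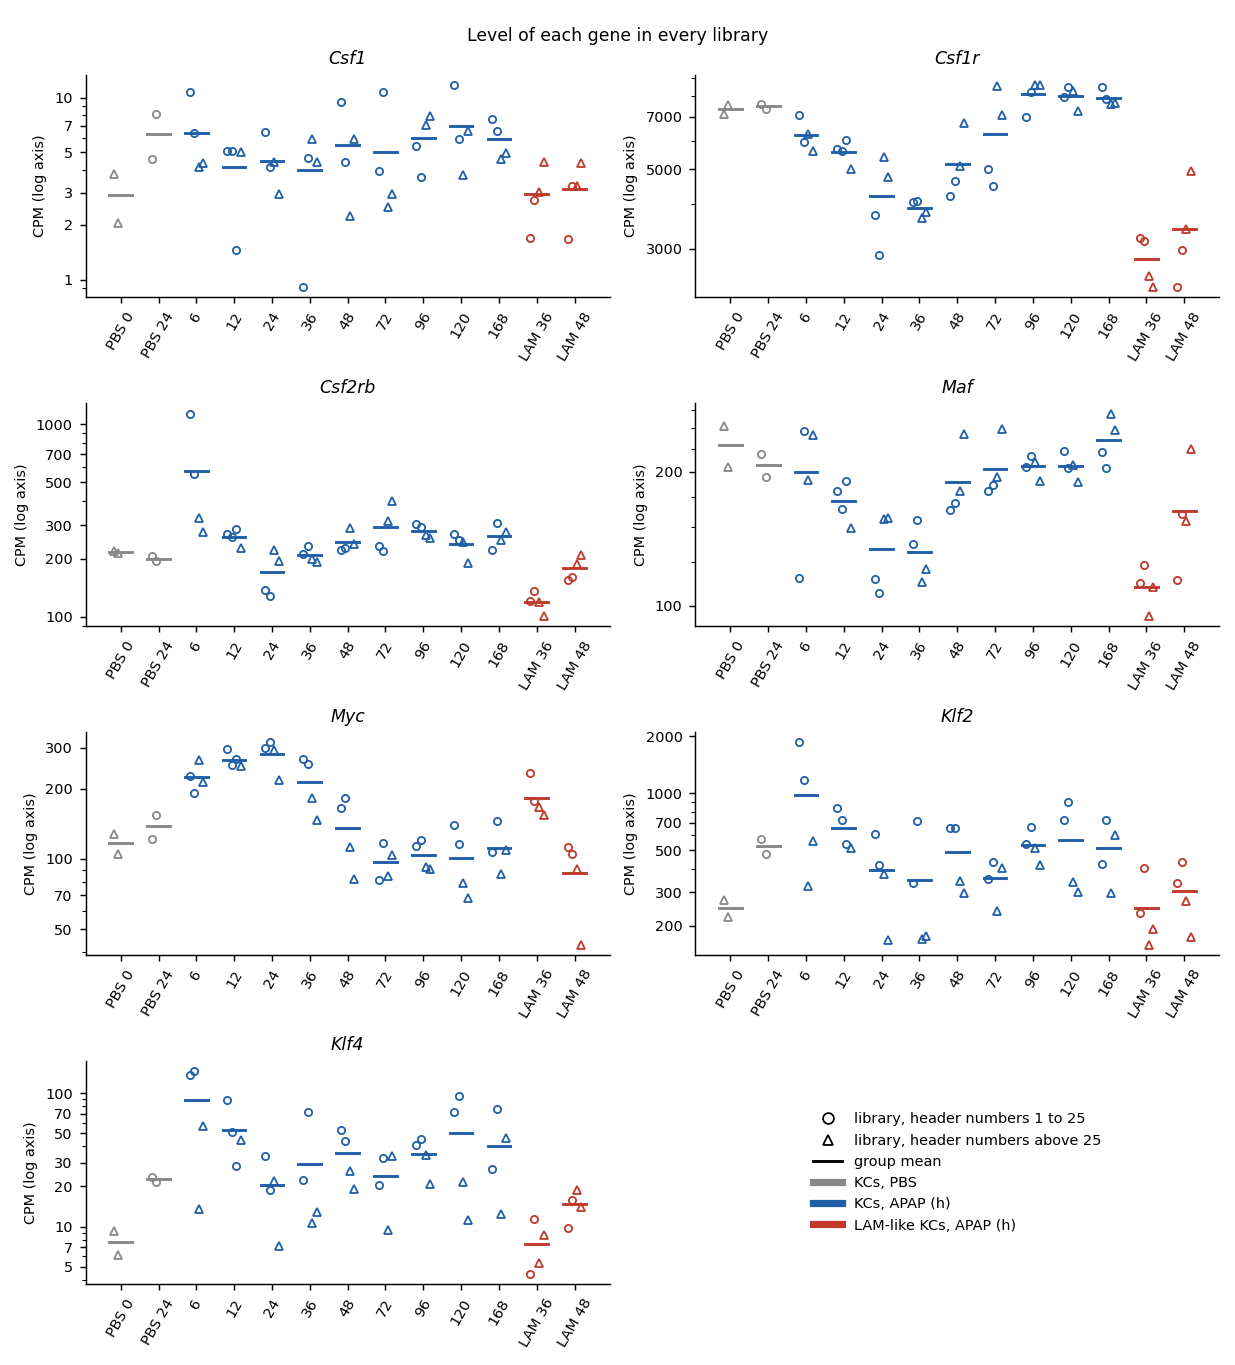
CPM of the 7 genes in every library (log axis), by group, with circles for header numbers up to 25 and triangles for higher numbers, and bars for the group mean. Csf1r is lowest in the groups at 24 h, 36 h and LAM-like 36 h and 48 h, Myc is highest from 6 h to 24 h, and the Klf2 and Klf4 circles mostly lie above the triangles.

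The first question was which of the 7 genes differed from PBS at each time. Myc, Csf2rb, Klf2 and Klf4 were called higher at 6 h, Myc and Klf4 at 12 h, and Myc alone at 24 h and 36 h. Csf1r and Maf were called lower at 24 h and 36 h. Csf1 was called at none of the 9 times. Calls are edgeR quasi-likelihood tests with a Benjamini-Hochberg adjusted p below 0.05 over all genes tested, and all 9 times were set against the same 4 PBS libraries, so the comparisons are not independent. Steps between consecutive KC times gave 2 calls of 56, which were Csf2rb from 6 h to 12 h and Maf from 36 h to 48 h. The share of all genes called was 6.09% from 6 h to 12 h, 9.04% from 12 h to 24 h, 8.2% from 24 h to 36 h, 12.7% from 36 h to 48 h, 4.55% from 48 h to 72 h, 0.0176% from 72 h to 96 h and 0 in both later steps.

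At 6 h, 4 of 7 genes were called, all higher, while 15.1% of all genes tested were called. With only the 6 h and PBS libraries in the fit it was 2 of 7, Myc and Klf4, beside 8.25%. At 12 h it was 2 of 7, both higher, beside 20.6% of all genes. With only the 12 h and PBS libraries in the fit it was 6 of 7, with 4 higher and 2 lower (Csf1r and Maf), beside 25.5%, and by DESeq2 3 of 7, with 1 lower (Csf1r), beside 25.8%. At 24 h and at 36 h it was 3 of 7, with 1 higher and 2 lower, beside 26.9% and 26.2% of all genes. The median log2 change of the 7 genes was 0.82 at 6 h, 0.32 at 12 h, 0.06 at 24 h and -0.05 at 36 h, against 0.04, 0.02, 0.02 and 0.02 for all genes. In the fit of all groups the count exceeded the background share most at 6 h. A count of 2 or 3 of 7 at the other times is not read as more than that share. With only the compared groups the count was instead highest at 12 h. The 6 h count also differed by setting. It was 4 of 7 in set 1 alone (2967 of 16362 genes called) and 1 of 7 in set 2 alone (1381 of 17129). With the PBS 0 h libraries alone as control it was 4 of 7 (1601 of 17080 genes), and with those of PBS 24 h alone 1 of 7 (1487 of 17080).

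From 48 h on, edgeR called 0 of 7 genes at any time, beside 3.67% of all genes at 48 h, 1.94% at 72 h, 0.158% at 96 h, 0.123% at 120 h and 0.0351% at 168 h. At an unadjusted p under 0.05 the counts were 2 of 7 at 48 h and 1 of 7 at each later time. The share of all genes at that unadjusted threshold is not given here, so these counts cannot be set against the shares above. DESeq2 called 1 of 7 at 48 h, which was Csf1r with a log2 change of -0.53 (adjusted p 0.0430), beside 6.76% of all genes, and 0 of 7 at each later time. With only the compared groups in the fit, Klf4 was called higher at 48 h (1.43, adjusted p 0.0285) and at 96 h (1.42, adjusted p 0.0436), as 1 of 7 beside 6.41% and 0.378% of all genes.

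**Figure D2:**
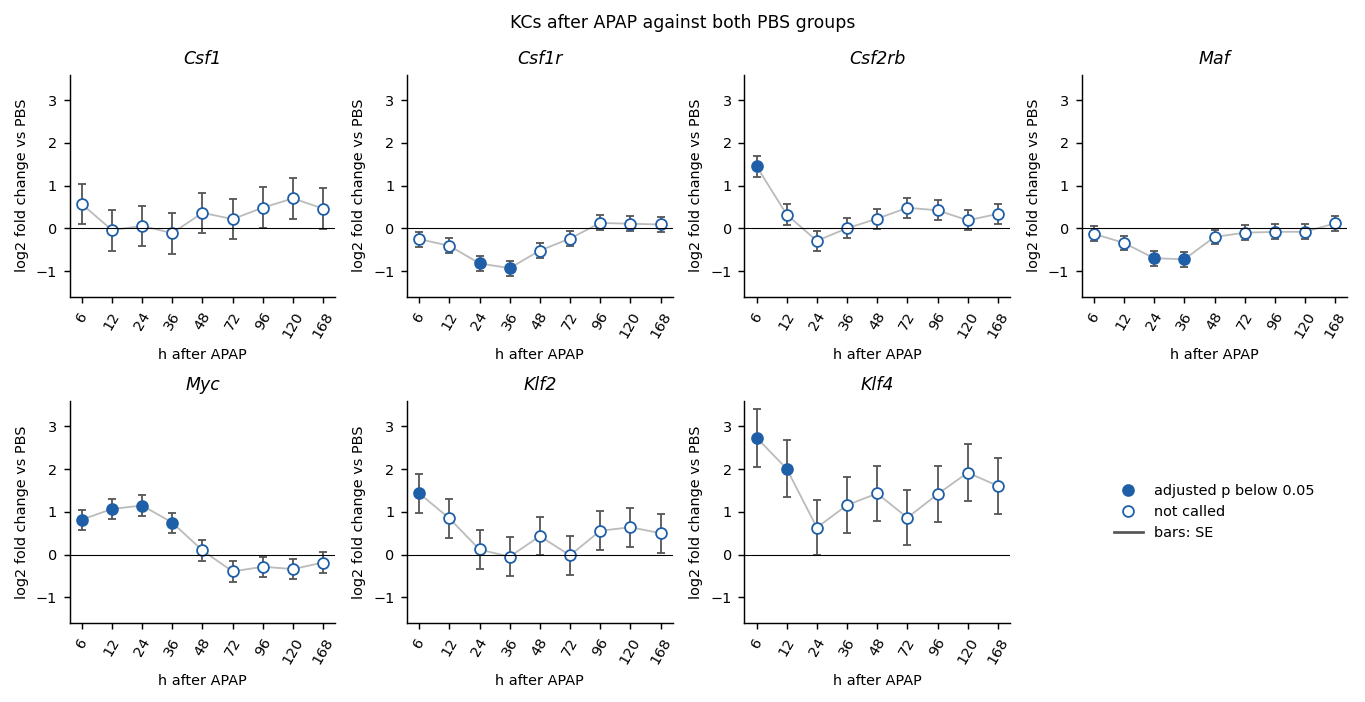
Log2 change against PBS of each of the 7 genes at the 9 times, with bars for the standard error and filled points for an edgeR adjusted p below 0.05. The 12 filled points of 63 all lie at 6 h to 36 h.

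Csf1, the ligand, was scarce in the KC libraries. It stood at 3.79 and 2.06 CPM in the PBS 0 h libraries and at 4.59 and 8.1 CPM in the PBS 24 h libraries. At 6 h it stood at 10.7, 6.38, 4.17 and 4.36 CPM, so 3 of 4 values lay within the PBS range. The difference was 0.57 ± 0.48 on the log2 scale (SE; edgeR adjusted p 0.467). Its highest group mean was 6.999 ± 3.40 CPM at 120 h (SD, n = 4; log2 difference 0.70, adjusted p 0.783). The lowest means after APAP were those of the LAM-like KCs, at 2.97 ± 1.13 CPM at 36 h and 3.14 ± 1.11 CPM at 48 h.

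Of the related ligands, 3 of 6 had enough counts for a test. Csf3, which encodes the granulocyte factor G-CSF, had 0 counts in all 4 PBS libraries. It stood at 11.6, 5.32, 0.780 and 0.999 CPM at 6 h, at 9.89, 9.20, 0.606 and 1.67 CPM at 12 h, and at 3.74, 0.576, 0 and 0 CPM at 24 h, and edgeR called it at all 3 times. Against a floor of 3 counts per library its mean was at least 30.3-fold higher at 6 h and at least 34.6-fold higher at 12 h, and without the highest library of each time, replicate 1, at least 15.3-fold and at least 24.8-fold higher. At 24 h the mean of 1.08 CPM rested on replicate 1, without which it was 0.192 CPM, close to the floor of 0.154 CPM. Csf2, which encodes GM-CSF, was at 0 in 42 of 48 libraries with a highest count of 4. Il3 and Il5 were at 0 in all 48 libraries. Il34, the other ligand of the CSF1 receptor, was at 0 in 11 libraries and reached 32 counts at most, while Csf1 reached 294 counts.

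Csf1r fell at 24 h and 36 h and overlapped PBS again from 72 h. It stood at 7117 and 7554 CPM in the PBS 0 h libraries and at 7609.6 and 7367 CPM in the PBS 24 h libraries. At 24 h it stood at 3720.3, 2874, 5420.4 and 4767 CPM, and at 36 h at 4037, 4062, 3643 and 3786 CPM. Every library at both times lay below every PBS library, and the spread was wider at 24 h than at 36 h.

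The Csf1r change at 24 h was -0.82 ± 0.18 on the log2 scale (adjusted p 0.000469) and at 36 h -0.93 ± 0.18 (adjusted p 8.63e-05), which is 1.91-fold lower. These calls, like that of Myc at 24 h, were lost in none of the 12 alternative settings and with none of the 8 libraries left out in turn. The size at 24 h differed by set, with -1.22 in set 1 and -0.53 in set 2, each against its own PBS libraries (adjusted p 4.62e-06 and 0.0306). At 36 h the sets gave -0.89 and -0.98. Of 12 KC markers, 1 was called higher and 5 lower at both times, and Clec4f averaged 6949 CPM at 24 h and 7823 CPM at 36 h. The KC marker sum ranged from 34644 to 41746 CPM at 24 h and from 34170 to 35920.0 CPM at 36 h, against 39149 to 46061 CPM in PBS, with no marker at 0, and its part in the Csf1r change was not tested. Col1a1, a collagen gene of stellate cells and fibroblasts, stood at 0.0513 to 0.390 CPM in PBS and at 2.13 to 2.48 CPM at 36 h, and was called higher there (adjusted p 0.00528) and at 48 h and 72 h. Of 16 stellate markers, 1 was called higher and 2 lower at 24 h and 2 higher and 1 lower at 36 h, and none was at 0. Their sum was 166 to 213 CPM at 24 h and 172 to 189 CPM at 36 h, against 255 to 358 CPM in PBS, and their part in the Csf1r and Maf changes was not tested.

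At 6 h, 12 h and 48 h Csf1r was below PBS without an edgeR call in the fit of all groups. At 6 h it stood at 7069, 5962, 6246 and 5625 CPM, below all PBS libraries (log2 difference -0.25, adjusted p 0.364), and at 12 h at 5687, 5609, 6029 and 5003 CPM (-0.41 ± 0.18, adjusted p 0.0948). At 12 h DESeq2 called it lower (-0.45, adjusted p 0.0459), as did edgeR with only the compared groups (-0.43, adjusted p 0.00494) and in set 1 alone (-0.41, adjusted p 0.0243). At 48 h it stood at 4209, 4645, 5113 and 6706 CPM, again below all PBS libraries (-0.52 ± 0.18, adjusted p 0.0893), and DESeq2 called it lower (-0.53, adjusted p 0.0430). Within set 1 alone the 48 h difference was -0.78 (adjusted p 0.00163), and within set 2 it was -0.31 (adjusted p 0.464).

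At 72 h Csf1r spread from 4475 to 8532 CPM. Replicates 1 and 2 stood at 5018 and 4475 CPM and replicates 3 and 4 at 8532 and 7075 CPM. The hepatocyte marker sum was 6609 and 22979 CPM in replicates 1 and 2 and 1515 and 1540 CPM in replicates 3 and 4, and its part in the Csf1r values was not tested. By 96 h, 120 h and 168 h the Csf1r means were 8089 ± 752, 7983 ± 535 and 7889 ± 388 CPM (SD, n = 4). All 3 lay above the PBS mean of 7412 ± 222 CPM, and none of these differences was called.

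Csf2rb, the shared signalling chain, rose at 6 h and was lower again by 12 h, when all 4 libraries still lay above PBS. It stood at 221 and 215 CPM in PBS 0 h, at 207 and 195 CPM in PBS 24 h, and at 1137, 551, 325 and 276 CPM at 6 h. All 4 libraries at 6 h lay above PBS, and replicate 1 was the highest by far. The change was 1.45 ± 0.24 on the log2 scale, 2.74-fold higher (adjusted p 5.36e-05). Without replicate 1 it was 0.88 (adjusted p 0.00147). It was 2.04 in set 1 alone (adjusted p 4.78e-06) and 0.47 in set 2 alone (adjusted p 0.0580), and with only the 6 h and PBS libraries in the fit 1.45 (adjusted p 0.0656).

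The step of Csf2rb from 6 h to 12 h was -1.13 ± 0.24 (adjusted p 0.00244), with 6.09% of all genes called in that step. At 12 h it stood at 269.8, 261, 287 and 228 CPM, and without replicate 1 of 6 h the step was -0.55 (adjusted p 0.109). At 24 h it stood at 138, 129, 222 and 194 CPM, with replicates 1, 2 and 4 below all PBS libraries (log2 difference -0.29, adjusted p 0.394). Csf2rb has a close mouse copy, Csf2rb2, which encodes the chain of the IL-3 receptor, and both transcripts share 518 windows of 75 bases. These are 7.15% of the windows of Csf2rb and 10.6% of those of Csf2rb2, so a part of the reads could be split between the copies. By group mean, Csf2rb made up 74.2% to 81.0% of the counts of the pair. Single libraries ran from 71.4% at 12 h to 87.1% at 6 h. Csf2rb2 was itself called higher at 6 h (0.92, adjusted p 0.00170).

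Among 7 tested CSF receptor genes, Csf1r and Csf2rb included, 3 were called higher at 6 h: Csf2rb, Csf2rb2 and Csf2ra. Csf2ra, the GM-CSF binding chain, rose by 0.47 at 6 h (adjusted p 0.00142) and by 0.35 at 12 h (adjusted p 0.0123). At 36 h, 3 of the 7 were called lower, namely Csf1r, Csf2ra (-0.29, adjusted p 0.0380) and Csf3r, the G-CSF receptor (-0.93, adjusted p 0.000216). At 24 h the lower calls were Csf1r and Csf3r (-0.54, adjusted p 0.0276). Csf3r is also a neutrophil gene, and the neutrophil gene S100a8 averaged 0.393 CPM in PBS, 4.08 CPM at 6 h and 6.32 CPM at 12 h. Of 7 tested neutrophil markers 3 were called higher and 0 lower at 6 h, while their sum ranged from 86.8 to 117 CPM at 6 h and from 82.8 to 129 CPM in PBS, and their part in the Csf2rb rise was not tested.

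Of 27 genes that signal below these receptors, 7 were called higher and 1 lower at 6 h, 9 higher and 0 lower at 12 h, 3 higher and 3 lower at 24 h, and 1 higher and 3 lower at 36 h. The median log2 change of the list was 0.21, 0.32, 0.09 and -0.16 at these times. The 6 and 4 of 27 called at 24 h and 36 h were smaller shares than the 26.9% and 26.2% of all genes. The STAT-induced inhibitors Socs3 and Socs2 rose by 3.86 and 1.97 at 6 h, the ERK phosphatase gene Dusp5 by 4.09 and the survival gene Bcl2l1 by 1.69. At 36 h Stat5b, a transcription factor that relays GM-CSF signals, was lower by a log2 change of -0.46, and Ptpn6, the phosphatase SHP-1, by -0.47. Many other cytokines also act on these genes.

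Transcription factors known to control Csf1r transcription were also followed. Of 10 tested, 5 were called higher and 0 lower at 6 h, 6 higher and 1 lower at 12 h, 0 and 1 at 24 h, and 0 higher and 6 lower at 36 h. At 6 h Spi1, which encodes PU.1, the main macrophage factor at the Csf1r locus, rose by 0.35 (adjusted p 0.0268), Cebpb by 1.49 and Ets2 by 2.07. At 36 h Spi1 fell by 0.37 (adjusted p 0.0114) and Cebpa by 0.99 (adjusted p 3.14e-05). Irf8 and Fli1 were lower at 36 h by log2 changes of -0.41 and -0.54.

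Maf, the factor that restrains macrophage division, was lower at 24 h and 36 h, alongside Csf1r. It stood at 254 and 205 CPM in PBS 0 h and at 219 and 195 CPM in PBS 24 h. At 24 h it stood at 115, 107, 157 and 158 CPM, and at 36 h at 137, 155, 113 and 121 CPM, with every library below every PBS library. The changes were -0.70 ± 0.17 (adjusted p 0.00225) and -0.72 ± 0.17 (adjusted p 0.00153), the latter 1.65-fold lower. The calls ended in set 2 alone at 24 h (-0.54, adjusted p 0.0580) and in set 1 alone at 36 h (-0.50, adjusted p 0.134).

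At 48 h Maf stood at 164, 169.7, 181 and 242 CPM, all above the 36 h libraries. That step was 0.52 ± 0.17 (adjusted p 0.0401), where 12.7% of all genes were called. The call ended without replicate 1, 3 or 4 of the 36 h libraries or replicate 3 or 4 of the 48 h libraries, with log2 changes of 0.37 to 0.54 and adjusted p of up to 0.227, and in set 1 alone the step was 0.17 (adjusted p 0.771). The level reached 236 ± 29.04 CPM at 168 h, against 218 ± 25.8 CPM in PBS (SD, n = 4 each). The Maf and Csf1r group means had a Pearson r of 0.915 over the 13 groups, as a description of groups that share the PBS reference and scaling.

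Among 9 tested genes of the MAF and CNC families, which pair with one another on DNA, 5 were called higher and 0 lower at 6 h, 7 higher and 0 lower at 12 h, 3 higher and 1 lower at 24 h, and 0 higher and 3 lower at 36 h. The medians were 0.75, 0.59, 0.21 and -0.28. The small MAF genes Mafk and Mafg rose by 1.62 and 1.17 at 6 h, and Maff by 4.76 at 12 h. Maf was the lower gene at 24 h, and the lower genes at 36 h were Maf, Bach1 (-0.83) and Nfe2l1 (-0.37).

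Myc was higher from 6 h to 36 h, with its highest means at 12 h and 24 h, before the mitosis genes. It stood at 128 and 105 CPM in PBS 0 h and at 122 and 155 CPM in PBS 24 h. At 12 h it stood at 295, 254, 267 and 250.5 CPM and at 24 h at 299, 315, 294 and 218 CPM, all above the highest PBS library. The changes were 1.07 ± 0.24 at 12 h (adjusted p 0.00101) and 1.15 ± 0.24 at 24 h (adjusted p 0.000316), the latter 2.22-fold higher, and the step between these times was 0.08 (adjusted p 0.89). In set 2 alone the 12 h difference, from 1 library, was 1.103 (adjusted p 0.0512).

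At 6 h Myc stood at 226, 192, 265 and 213 CPM, all above PBS (0.82 ± 0.24, adjusted p 0.0147). At 36 h it stood at 269, 256, 181 and 147 CPM, with replicate 4 within the PBS range (0.75 ± 0.24, adjusted p 0.0154). Both calls ended when the PBS 24 h libraries alone were the control, with values of 0.70 (adjusted p 0.141) and 0.63 (adjusted p 0.132), but not with the PBS 0 h libraries alone (0.94 and 0.87, adjusted p 0.0392 and 0.0390). In set 1 alone Myc was called at 6 h (0.56, adjusted p 0.0317) and 36 h (0.92, adjusted p 0.00113), and in set 2 alone at 6 h (1.03, adjusted p 0.0234) and not at 36 h (0.49, adjusted p 0.212). They also ended without PBS 24 h replicate 1 (0.73 and 0.64) or PBS 0 h replicate 2 (0.74 and 0.65), and the 36 h call without replicate 1 (0.62) or 2 (0.65) of that time. At 48 h Myc stood at 166, 183, 113 and 82.1 CPM, spanning the PBS libraries (0.10, adjusted p 0.884), and at 72 h its mean was 96.6 ± 16.8 CPM (-0.39, adjusted p 0.421).

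Of 28 genes known as MYC targets in ribosome production, 19 were called higher at 6 h, 27 at 12 h, 28 at 24 h, 23 at 36 h and 0 at 48 h. Their median log2 change was 0.74, 1.08, 1.48, 1.20 and 0.22 at these times, beside medians of all genes of at most 0.04. The summed level rose from 2581 and 2677 CPM in the PBS groups to 6616 ± 1117 CPM at 24 h (SD, n = 4). Ncl, the nucleolar protein nucleolin, was higher by 1.69 at 24 h (adjusted p 3.84e-09) and Npm1, nucleophosmin, by 1.59 (adjusted p 6.57e-09). Other factors also drive these genes.

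Among 12 tested genes of the MYC and MAX network, Myc included, 3 were called higher and 0 lower at 6 h, 2 and 1 at 12 h, 1 and 2 at 24 h, and 2 and 3 at 36 h. Mxd4, a MAX partner that represses MYC sites, had log2 changes of -1.27 at 12 h (adjusted p 0.000356), -1.76 at 24 h (adjusted p 2.89e-06) and -1.15 at 36 h (adjusted p 0.000615). Mxd3, the family member known to be transcribed in S phase, was called higher at 36 h and 48 h.

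Klf4 and Klf2 were highest at 6 h, and their libraries spread widely. Klf4, which encodes a factor that self-renewing mouse macrophages need, stood at 9.28 and 6.12 CPM in PBS 0 h and at 23.7 and 21.6 CPM in PBS 24 h. At 6 h it stood at 137, 146, 13.5 and 56.8 CPM, and replicate 3 lay within the PBS range. The change was 2.74 ± 0.68 on the log2 scale, 6.67-fold higher (adjusted p 0.00474). At 12 h it stood at 88.7, 51.2, 28.5 and 44.6 CPM, all above PBS (2.01 ± 0.66, adjusted p 0.0270). The 12 h call ended in 5 of the 8 fits with a library left out (adjusted p of up to 0.122) and with no filter on low counts (adjusted p 0.0551).

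Klf2 stood at 274 and 223 CPM in PBS 0 h and at 573 and 480.5 CPM in PBS 24 h. At 6 h it stood at 1853, 1175, 325 and 562 CPM, so replicates 1 and 2 were high and replicates 3 and 4 lay within the PBS range. The change was 1.44 ± 0.46, 2.70-fold higher (adjusted p 0.0297), and without replicate 1 it was 0.93 (adjusted p 0.226). That call ended in 6 of the 8 fits with a library left out. It also ended with no filter on low counts (1.42, adjusted p 0.0642) and with only the compared groups (1.44, adjusted p 0.0996). At 12 h it stood at 833, 726, 536 and 514 CPM (0.85, adjusted p 0.196). With the PBS 24 h libraries alone as control, no call of Klf2 or Klf4 was left: Klf2 at 6 h was 0.89 (adjusted p 0.370), Klf4 at 6 h 1.96 (adjusted p 0.151) and Klf4 at 12 h 1.23 (adjusted p 0.361). With the PBS 0 h libraries alone all 3 calls held, at 1.98 (adjusted p 0.0345), 3.51 (adjusted p 0.0152) and 2.79 (adjusted p 0.0338).

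Later, both genes were again high in some libraries. At 120 h Klf4 stood at 72.0 and 95.2 CPM in replicates 1 and 2 and at 21.4 and 11.1 CPM in replicates 3 and 4 (1.92 ± 0.66, adjusted p 0.358). At the same time Klf2 stood at 721 and 897 CPM in replicates 1 and 2 and at 338 and 302 CPM in replicates 3 and 4. Neither difference was called.

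The levels of Klf2, Klf4 and Myc moved with the immediate early genes and with the set. The immediate early sum at 6 h was 48527, 30417, 6387 and 11857 CPM in replicates 1 to 4, the same libraries that were high and low in Klf4. Over all 48 libraries with the groups held in the fit, each doubling of that sum went with 0.61 ± 0.04 in Klf2 (adjusted p 2.92e-15), 0.83 ± 0.08 in Klf4 (adjusted p 5.94e-10) and 0.22 ± 0.05 in Myc (adjusted p 0.000913). These were 3 of the 7 genes, and 14.6% of all genes were called for it. Maf (-0.06, adjusted p 0.411), Csf1r (-0.07, adjusted p 0.23), Csf1 (0.19, adjusted p 0.266) and Csf2rb (0.10, adjusted p 0.253) were not called. Neither Klf2, Klf4 nor Myc is part of that sum.

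With the immediate early sum as a covariate, Klf2 at 6 h differed from PBS by 0.03 (adjusted p 0.964), Klf4 by 0.83 at 6 h (adjusted p 0.156) and 0.32 at 12 h (adjusted p 0.627), and Myc by 0.46 at 6 h (adjusted p 0.154). That sum ran from 6387 to 48527 CPM at 6 h and from 2562 to 11136 CPM in PBS. The covariate can therefore also take away part of a difference between APAP and PBS. Set 2 differed from set 1 by -0.90 in Klf2 (adjusted p 6.79e-06), by -0.95 in Klf4 (adjusted p 0.00441) and by -0.40 in Myc (adjusted p 0.000402), where 18.3% of all genes were called. In 9 of 11 groups with both sets every set 1 library was above every set 2 library for Klf2, in 8 for Myc and in 5 for Klf4. The reverse was seen in 0 groups for each of them. For Csf2rb these counts were 6 and 4, for Csf1r 4 and 5, for Maf 3 and 4, and for Csf1 3 and 2. The same counts over all genes are not given here. In set 1 alone at 6 h both Klf2 (1.49, adjusted p 0.00686) and Klf4 (2.61, adjusted p 0.00731) were called higher, and in set 2 alone neither was (0.84, adjusted p 0.250, and 2.19, adjusted p 0.136). At 12 h Klf4 was 1.27 in set 1 (adjusted p 0.127) and, from 1 library assumed to vary like the other groups, 2.53 in set 2. The part of cell handling in these levels was not tested.

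**Figure D3:**
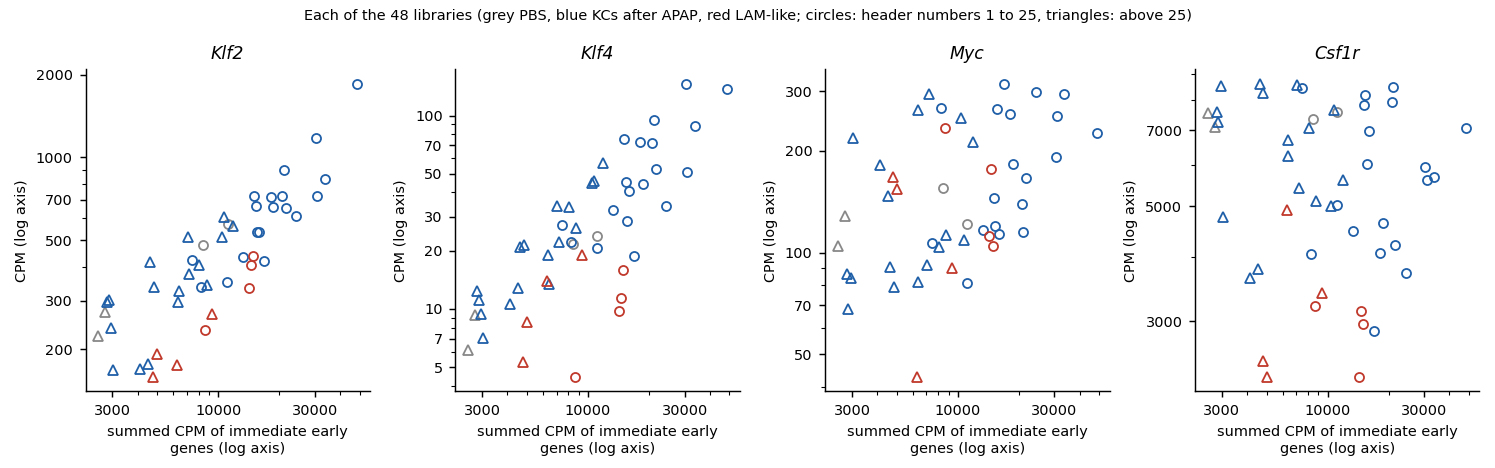
CPM of Klf2, Klf4, Myc and Csf1r against the summed CPM of 22 immediate early genes in the 48 libraries (both axes log), with circles for set 1 and triangles for set 2. Klf2 and Klf4 climb with the sum, with slopes of 0.61 and 0.83 per doubling, and Csf1r has a slope of -0.07.

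Of 13 tested KLF genes, Klf2 and Klf4 included, 7 were called higher and 0 lower at 6 h (median log2 change 0.57), 3 and 0 at 12 h, 1 and 1 at 24 h and at 36 h, and 0 at 48 h. At 6 h Klf9, a target of the glucocorticoid receptor, rose by 2.54, Klf6 by 1.89, Klf13 by 1.29 and Klf7 by 0.94. The calls at 24 h were Klf16, higher by 0.90, and Klf3, lower by a log2 change of -0.42. Of 12 inhibitors of the cell cycle, 2 were called higher and 2 lower at 6 h, and 4 higher and 3 lower at 24 h. Cdkn1a, which encodes the p53 target p21, rose by 4.24 at 6 h and Btg2, an antiproliferative gene, by 2.15. Cdkn1b, which encodes the quiescence inhibitor p27, fell by 1.26 at 24 h and Cdkn1c, which encodes p57, by 2.51.

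The 7 genes were then set beside the proliferation wave. DNA replication genes rose first: of 24, 15 were called lower at 6 h, 6 lower at 12 h, 19 higher at 24 h, 24 higher at 36 h and 4 higher at 48 h. Their summed level was 842 and 788 CPM in the PBS groups, 2405 ± 726 CPM at 24 h, 5410 ± 279 CPM at 36 h and 1389 CPM at 48 h. Of 24 mitosis genes, 0 were called higher at 24 h, 24 at 36 h, 23 at 48 h and 3 at 72 h. Their summed level was 362 CPM in PBS 0 h, 164 CPM in PBS 24 h, 253 CPM at 24 h, 1438 ± 154 CPM at 36 h, 1445 ± 375 CPM at 48 h and 407 CPM at 72 h.

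Set in time, the 7 genes fell into different places on this wave. Myc had its highest mean of 282 ± 43.2 CPM at 24 h. The mitosis sum at that time was 123, 185, 324 and 382 CPM, against 139 to 508 CPM in PBS. At 48 h, with the mitosis sum still high, Myc stood at 136 ± 46.6 CPM against 127 ± 20.8 CPM in PBS. Csf1r was lowest among KC times at 36 h, when the DNA replication sum was highest, and Maf was at its lowest at both 24 h (134 ± 27.04 CPM) and 36 h (132 ± 18.7 CPM). At 48 h, Maf stood at 189 ± 36.0 CPM and Csf1r at 5168 ± 1089 CPM. Csf2rb stood at 209 ± 17.8 CPM at 36 h against 209 ± 10.9 CPM in PBS, and its only call against PBS in the fit of all groups was at 6 h. Its means were 245, 292, 280 and 264 CPM at 48 h, 72 h, 96 h and 168 h, with every library above every PBS library, and at 120 h the ranges overlapped. In set 2 alone edgeR called it higher at 72 h (log2 change 0.72, adjusted p 0.0358).

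**Figure D4:**
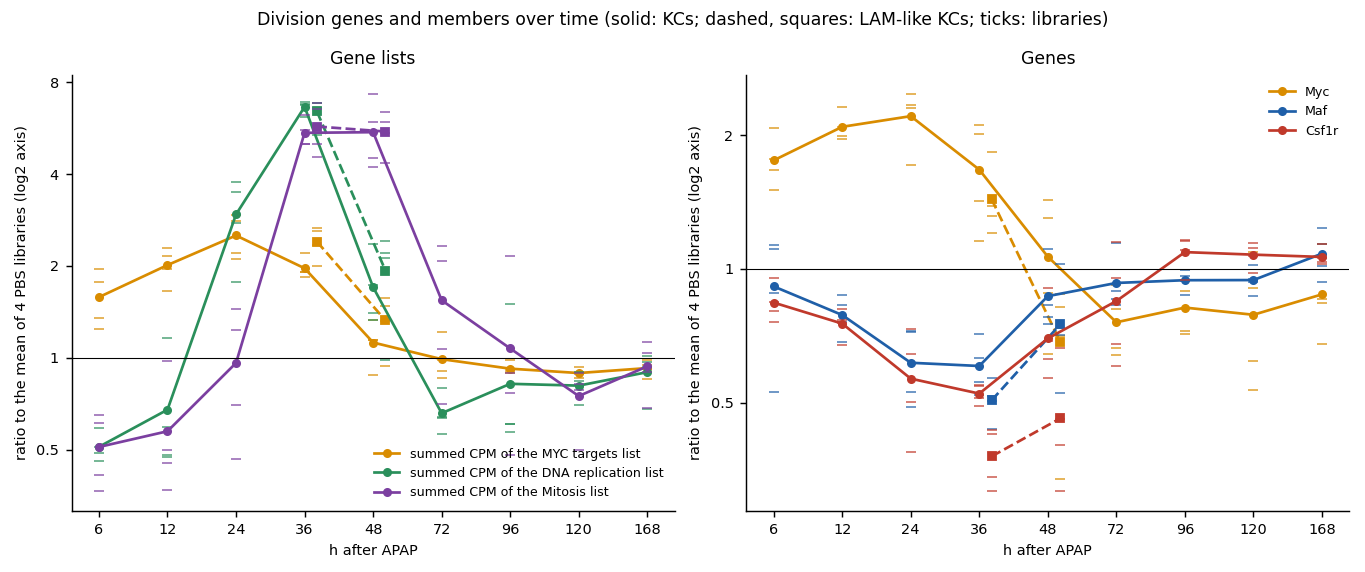
Ratio of the group mean to the mean of the 4 PBS libraries (log2 axis), by time after APAP (times evenly spaced, not to scale). The curves are Myc, Maf and Csf1r and the summed MYC target, DNA replication and mitosis genes, with LAM-like KCs as squares on dashed lines. Myc is highest at 24 h, before the mitosis sum, and Csf1r is lowest among KC times at 36 h.

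Over the 13 groups, which share libraries between genes and a scaling, the Pearson r with the mitosis sum was -0.736 for Csf1r, -0.711 for Klf2, -0.625 for Csf1, -0.552 for Maf and for Csf2rb, -0.534 for Klf4 and -0.182 for Myc, as a description. The 2 groups farthest from the median of the mitosis sum were the LAM-like KCs at 36 h and 48 h. Without them these were -0.533, -0.573, -0.419, -0.341, -0.294, -0.289 and -0.107, so most of them rest in part on the LAM-like groups. With the DNA replication sum, r was -0.843 for Maf, -0.804 for Csf1r, -0.765 for Csf2rb, -0.712 for Klf2, -0.598 for Klf4, -0.584 for Csf1 and 0.289 for Myc. Without the 2 farthest groups, both of 36 h, these were -0.624, -0.666, -0.795, -0.576, -0.524, -0.339 and 0.0457.

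The genes with the most similar group means, among 8446 with a mean of at least 10 CPM, were named for each of the 7 by Pearson r over the 13 groups. For Csf1r they were Adcy4 (0.982), Peg13 and the KC marker Clec4f (0.981), and for Maf they were Ifngr1 (0.981), Wwc2 and Tprgl. For Myc they included Ppan and Smad2. For Klf2 they were Il1b (0.955), Tob2 and Ier5, and for Klf4 they were Klf2 (0.933), Pmaip1 and Jund. For Csf2rb they were Rcan1 (0.950), Eif4ebp1 and Csf2rb2 (0.927), and for Csf1 they were Map3k14 (0.875), Pkdcc and Dcaf5.

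Ordered by group mean, the 13 levels of each gene formed a run in which neighbours mostly overlapped. Of 12 neighbouring pairs, 0 had ranges apart for Csf1, Csf1r, Csf2rb, Maf, Myc and Klf2. For Klf4 it was 1, with the LAM-like 48 h libraries above those of PBS 0 h. Csf1r was highest at 96 h, 120 h and 168 h and lowest in LAM-like KCs. Maf was highest at 168 h and lowest in LAM-like KCs at 36 h, and Myc was highest at 24 h and lowest in LAM-like KCs at 48 h.

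The next question was whether LAM-like KCs differed from the other KCs of the same time. The 7 genes all had lower fitted levels in LAM-like KCs at both times, and edgeR called 0 of 7 at 36 h and 0 of 7 at 48 h, where 1.89% and 2.51% of all genes were called. At an unadjusted p under 0.05 the counts were 3 and 2 of 7, and the share of all genes at that threshold is not given here. DESeq2 called Klf4 (-2.004, adjusted p 0.0405) and Csf2rb (-0.82, adjusted p 0.0277) at 36 h and Csf1r (-0.60, adjusted p 0.0206) at 48 h, beside 3.85% and 4.73% of all genes. The median log2 difference of the 7 was -0.47 at 36 h and -0.64 at 48 h, against -0.01 for all genes at each time.

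Csf1r stood at 3208, 3142, 2514 and 2345 CPM in LAM-like KCs at 36 h, below all KC libraries of that time (-0.47 ± 0.18, adjusted p 0.212). At 48 h it stood at 2347, 2971, 3404 and 4928 CPM, overlapping the KC libraries (-0.60 ± 0.18, adjusted p 0.0554). In both groups at 48 h, replicate 4 was the highest and replicate 1 the lowest.

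Csf2rb stood at 121, 137, 120.1 and 101 CPM in LAM-like KCs at 36 h, again below all KC libraries (-0.80 ± 0.24, adjusted p 0.0714). At 48 h it stood at 156, 162, 189 and 209.6 CPM, with no overlap (-0.45, adjusted p 0.398). Klf4 stood at 4.45, 11.4, 5.30 and 8.58 CPM in LAM-like KCs at 36 h (-1.98 ± 0.67, adjusted p 0.143), a difference that was -1.03 without KC replicate 2, at 72.5 CPM against 10.6 to 22.2 CPM in the other KC libraries. It stood at 9.76, 15.96, 18.9 and 13.97 CPM at 48 h, where the groups did not overlap (-1.28 ± 0.65, adjusted p 0.374). Of the other genes at 48 h, Myc differed by -0.64 ± 0.24 (adjusted p 0.166), Klf2 by -0.69 (adjusted p 0.536), Maf by -0.21 (adjusted p 0.647) and Csf1 by -0.82 (adjusted p 0.458).

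In these comparisons libraries with the same replicate number deviated together, so the number was taken as a pair. At 36 h the lowest r of a pair matched the highest r between unlike numbers (0.126). All 4 pairs were lower in LAM-like KCs for Csf1r, Csf2rb, Klf4 and Maf at both times, and for Myc and Klf2 all 4 were lower at 48 h and 3 at 36 h. For Csf1 it was 2 of 4 pairs at 36 h and 3 of 4 at 48 h. The share of all genes with all 4 pairs in the same direction is not given here, so these counts are a description only. The log2 ratio of the pairs in Csf2rb at 36 h was -0.81 ± 0.08 (SD, n = 4 pairs) and ran from -0.92 to -0.74. For Csf1r the pair ratios ran from -0.69 to -0.33 at 36 h and from -0.84 to -0.44 at 48 h.

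With the replicate number as a block, edgeR called 0 of 7 at 36 h and 2 of 7 at 48 h, Csf1r (-0.60, adjusted p 0.0406) and Myc (-0.64, adjusted p 0.0465), where 2.62% and 3.45% of all genes were called. With the block and only the compared groups in the fit, a setting chosen after seeing the data, 4 of 7 were called at 36 h beside 15.1% of all genes and 5 of 7 at 48 h beside 11%. At 36 h these were Csf2rb (-0.82, adjusted p 1.21e-05), Csf1r (-0.50, adjusted p 0.000318), Klf4 (-1.69, adjusted p 0.00575) and Maf (-0.27, adjusted p 0.0162). At 48 h they were Csf1r (-0.65, adjusted p 0.000867), Klf2 (-0.69, adjusted p 0.00238), Myc (-0.67, adjusted p 0.00403), Csf2rb (-0.47, adjusted p 0.00743) and Klf4 (-1.22, adjusted p 0.0330).

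**Figure D5:**
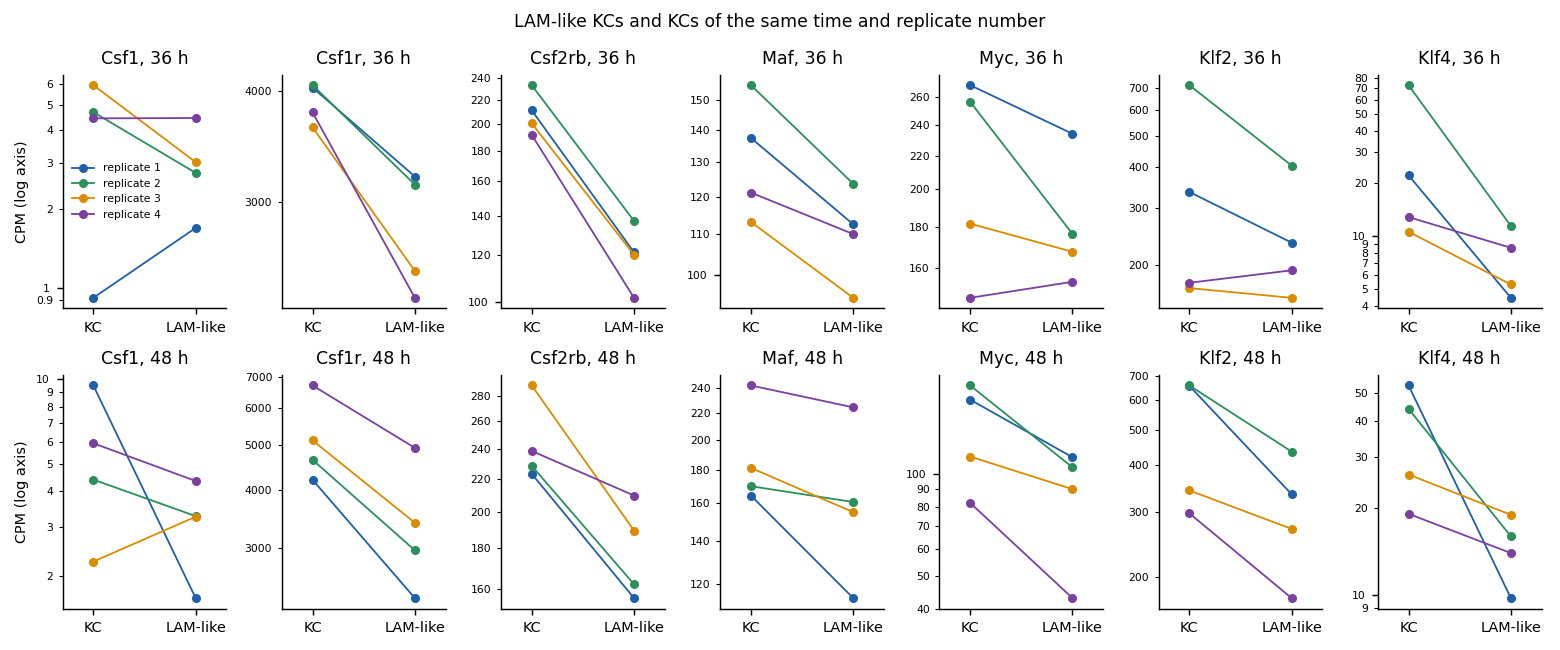
CPM of the 7 genes in KCs and LAM-like KCs at 36 h and 48 h (log axes), with lines joining libraries of the same replicate number. All 4 lines slope down for Csf1r, Csf2rb, Klf4 and Maf at both times, and the share of all genes that do so is not given.

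KC identity genes were also lower in LAM-like KCs. The summed KC marker level was 23030 CPM in LAM-like KCs against 35089 CPM in KCs at 36 h, and 26198 against 36148 CPM at 48 h, with 5 and 3 of 12 markers called lower, 0 called higher and none at 0. At 36 h the sum ranged from 21981 to 23845 CPM in LAM-like KCs and from 34170 to 35920.0 CPM in KCs. Of 12 monocyte markers, 3 were called lower at 36 h and 2 at 48 h, and 0 higher. Clec4f differed by -0.91 at 36 h (adjusted p 0.00248) and by -0.98 at 48 h (adjusted p 0.00154). The part of these markers in the Csf1r and Csf2rb values was not tested. The mitosis sums were 1508 CPM in LAM-like KCs against 1438 CPM in KCs at 36 h, and 1452 against 1445 CPM at 48 h. The change of the LAM-like difference from 36 h to 48 h was called by edgeR for 0 of 7 genes, where 0.00585% of all genes were called, with 0 of 7 at an unadjusted p under 0.05 and 0 of 7 by DESeq2.

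The PBS groups differed from each other in some of the 7 genes. Klf2 was higher in both PBS 24 h libraries than in both PBS 0 h libraries (1.08, adjusted p 0.789), as were Klf4 (1.55, adjusted p 0.791) and Csf1 (1.11, adjusted p 0.792). Csf2rb was lower in both PBS 24 h libraries, at 207 and 195 CPM, than in both PBS 0 h libraries, at 221 and 215 CPM, and was not called. edgeR called 0 of 7, beside 0.0527% of all genes, with 0 of 7 at an unadjusted p under 0.05 and 0 of 7 by DESeq2. With only the 4 PBS libraries in the fit, Klf2 (1.09, adjusted p 0.0109) and Klf4 (1.56, adjusted p 0.0366) were called, beside 0.854% of all genes. Csf1r, at 7117 to 7609.6 CPM, and Maf, at 195 to 254 CPM, overlapped between the PBS groups.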

How the data were processed

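Liver KCs were profiled by bulk RNA-seq in 48 libraries. The deposited files hold whole-number read counts per gene for each library. Per the submitters' processing notes, the authors worked with the mm10 genome, HISAT2 2.2.0, featureCounts 2.0.0, FastQC 0.11.9 and SAMtools 1.10. The annotation release, the strand setting and any duplicate removal are not given in the sources used here. Without a known strand setting, reads of overlapping genes may be shared: Hmgxb3, on the other strand of Csf1r, had 0.467% of the counts of Csf1r.

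Counts of all 48 libraries were fitted by group in edgeR 4.0.16 (R 4.3.3), with the filterByExpr filter, which kept 17080 genes and no less than 99.94% of any library's counts, TMM scaling and a robust quasi-likelihood fit. Levels are CPM on TMM-scaled totals. p-values were adjusted by Benjamini-Hochberg over all genes tested, and calls used an adjusted p below 0.05. The 21 comparisons were each of 9 times against the mean of both PBS groups, 8 steps between times, LAM-like KCs against KCs at 36 h and 48 h, the change of that difference, and PBS 24 h against PBS 0 h. The fit was tested on simulated data. Total counts of 15885336 to 26058698 limit the precision for Csf1, with at most 294 counts a library.

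Alternatives were DESeq2 1.42.0, RLE scaling, no filter on low counts, only the compared groups, each PBS group alone, each header set alone or as a covariate, the replicate number as a block, and each library left out. Same-numbered libraries deviated together for LAM-like KCs and KCs, with r of 0.126 to 0.191 at 36 h and 0.189 to 0.35 at 48 h. Libraries of unlike number reached r of up to 0.126 at 36 h and 0.163 at 48 h. The numbers were taken to pair the libraries, by the data and not by the labels. In these groups replicates 1 and 2 were of set 1 and replicates 3 and 4 of set 2, and the part of the set in these r values was not tested. In the comparisons with PBS, libraries of the same label number did not deviate together, with r of -0.0916 to 0.0865. The PBS 0 h libraries carry the numbers 3 and 4 in the file headers, and pairing by those numbers was not checked.

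The genes named are the 7 members, the 3 closest genes by r, up to 4 called genes of each related list with the smallest adjusted p, and companions and cell markers fixed by name. A few of these genes are not reported here. The members and lists were chosen with earlier results of these data known. Promoters are from RefSeq (GRCm38.p6).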

Additional observations from a re-analysis of the deposited data

Results flagged for a closer look

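Among the 4 KC libraries at 12 h, replicate 3 had a Csf1 level of 1.45 CPM, while the nearest of the others had 5.06 CPM. The gap was 0.983 of the whole range of the group, above Dixon's 95% critical value of 0.829 for 4 libraries. It was 1 of 77 groups of values tested, and chance alone marks about 1 in 20. Csf1 was not called at 12 h.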

How the results depend on the processing

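Against PBS over 9 times, 12 member calls of 63 became 6 in set 2 alone and 7 with the PBS 24 h libraries alone as control, and 8 to 13 with each library left out. The 2 calls among steps became 1 with no filter on low counts and 8 in set 1 alone, and 1 to 3 with each library left out. For LAM-like KCs at 36 h, 0 calls became 2 with the immediate early covariate, 2 with the replicate block and that covariate, 2 in set 2 alone, 2 with only the compared groups, 4 with the replicate block and only the compared groups and 2 with DESeq2, and stayed 0 with each library left out. For LAM-like KCs at 48 h, 0 calls became 1 with RLE scaling, 2 with the replicate block, 1 with the immediate early covariate, 1 with both, 2 with the set as a covariate, 1 in set 1 alone, 5 with the replicate block and only the compared groups and 1 with DESeq2, and ran from 0 to 1 with each library left out. For the PBS groups, 0 calls became 2 with only those libraries in the fit. Klf2 at 24 h, not called at 0.12, was called lower at -0.58 (adjusted p 0.0103) with the immediate early covariate, as was Klf2 at 36 h (-0.59, adjusted p 0.00790, otherwise -0.05); the cause was not tested. All genes called for LAM-like KCs numbered 322 at 36 h and 429 at 48 h, against 712 and 268 with only the compared groups, 2040 and 1491 with the replicate block and only the compared groups, and 548 and 701 with DESeq2. The change of the LAM-like difference had 0 calls under every alternative run.

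The replicate numbers of the labels showed no pairing of PBS and APAP libraries, with r of -0.0916 to 0.0865, and pairing by the header numbers was not checked. The block by replicate number, with 16 calls against PBS, and a block by the header numbers, with 13, stand here only. The immediate early covariate, the block by header numbers and the combinations with the block were chosen after seeing the data. With 4 libraries a group and 2 for each PBS time, small differences in Klf4, Klf2 and Csf1 were not detectable at this depth and spread. Larger ones could also go uncalled: Klf4 at 120 h was 3.78-fold higher than PBS (edgeR adjusted p 0.358).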
